A study of Homo sapiens with 66 samples.

Results

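KASUMI-1, an acute myeloid leukemia (AML) cell line that carries the RUNX1-RUNX1T1 fusion, was compared with 10 other AML cell lines without drug. The 3 untreated KASUMI-1 libraries were chosen by their labels, out of 66 RNA libraries in the series, and set against the 30 untreated libraries of OCI-AML3, MOLM-13, THP-1, HL-60, OCI-AML2, F-36P, MV-4-11, NOMO-1, MONO-MAC-6 and NB-4. Untreated cells of every line had received plain medium in place of etoposide, and RNA of each library came from cells pooled over 3 wells. The listed treatment time was the same for all 66 libraries, untreated ones included. The labels name no genotype, transgene or gene deletion for any line. KASUMI-1 is 1 line, so that levels tied to the fusion and levels tied to anything else in this line cannot be told apart here.

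RUNX1 is a DNA-binding transcription factor that directs blood cell formation with its partner CBFB. In t(8;21) AML the translocation joins its DNA-binding part to nearly all of RUNX1T1, also named ETO, which recruits corepressors and histone deacetylases. The fusion protein is known for blocking granulocytic maturation and for sustaining a progenitor state, and the blasts often carry CD34 and KIT on their surface.

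Reads on genes numbered between 19409082 and 20800843 in the KASUMI-1 libraries, within the range of 18261596 to 21304265 in the other 30. The 10 most abundant genes took 9.12% to 9.71% of the reads in KASUMI-1 and 5.03% to 7.95% elsewhere. The scaling factors of the TMM method were 0.931 to 0.949 for KASUMI-1 and 0.956 to 1.10 for the others. With plain library sizes in place of TMM, the log2 differences of KASUMI-1 moved by a median of -0.11, and all values here are relative to the TMM scaling. Levels are given as CPM, read counts scaled to the TMM-adjusted library size, and a count of 0 over the 3 KASUMI-1 libraries allowed a level of up to 0.0495 CPM. Of the markers of myeloid blasts, KASUMI-1 had 77.5 ± 2.45 CPM of CD33 (SD, n = 3) and 131 ± 11.2 CPM of SPI1, the transcription factor PU.1, both within the range of the other lines. PTPRC, which encodes the leukocyte antigen CD45, was at 32.5 ± 4.02 CPM, below the 108 to 539 CPM of the other line means.

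RUNX1T1 was read almost only in KASUMI-1. Its 3 libraries held 5120, 4742 and 4328 reads of RUNX1T1 (ENSG00000079102.16, chr8:91954972-92103286 on GRCh38, minus strand), which is 259, 248 and 239 CPM. Of the other 30 libraries, 5 held between 1 and 3 reads and the rest held none. The groups did not overlap, and the 14190 reads in KASUMI-1 against 8 elsewhere differed 17540-fold once scaled to the reads on genes (95% exact binomial interval 8900 to 40636, counting error only). With 1 summed value per line, the difference on the log2 scale was 13.99 (adjusted p = 0.000725, edgeR quasi-likelihood test with Benjamini-Hochberg adjustment, called the edgeR line test below). A count per gene does not separate reads of the fusion transcript from reads of an unjoined RUNX1T1 or RUNX1.

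RUNX1 itself (ENSG00000159216.18, chr21:34787801-36004667, minus strand) had 451, 430 and 444 CPM in KASUMI-1. The other 30 libraries ranged from 81.1 to 364 CPM with a median of 183. All 3 KASUMI-1 libraries thus lay above every other library, 1.27-fold above MV-4-11, the next line, but the spread between lines was wide and the edgeR line test was not passed (log2 difference 1.29, adjusted p = 0.697). Set against the replicate spread alone, the library-level edgeR fit gave a log2 difference of 1.41 ± 0.05 (SE). Of the other family members, RUNX2, RUNX3, CBFB, CBFA2T2 and CBFA2T3 lay within the range of the other lines in KASUMI-1. CBFB ranked 10 of 11 with 75.6 ± 3.87 CPM, and CBFA2T3, the corepressor ETO2, also ranked 10 with 15.9 ± 1.61 CPM.

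**Figure D1:**
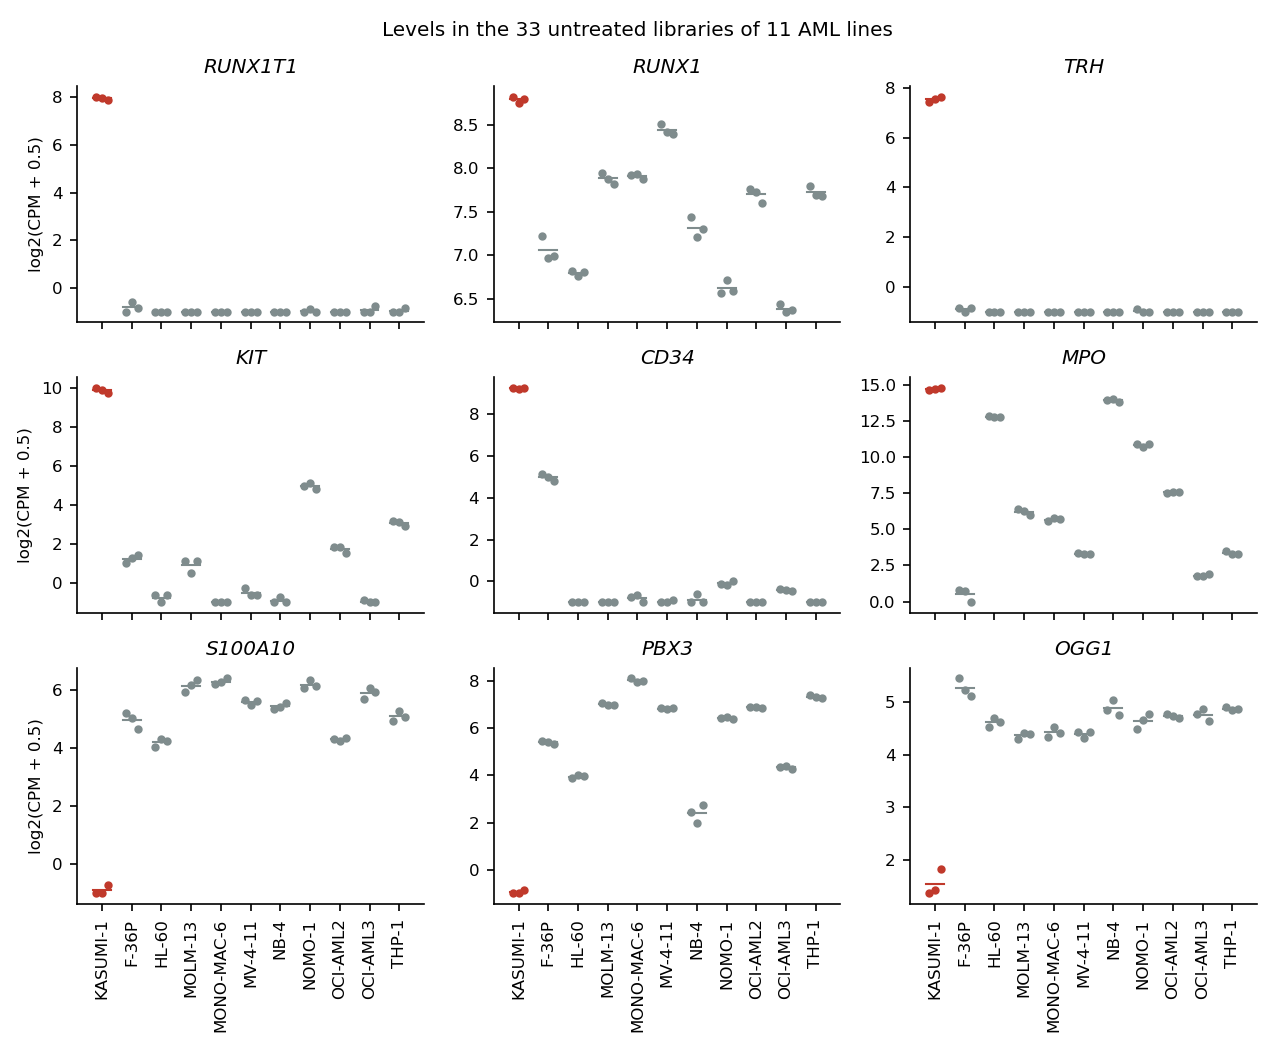
Expression of 9 genes in the 33 untreated libraries, as log2(CPM + 0.5) on the vertical axis and by cell line on the horizontal axis. Each point is 1 library and each bar is the mean of 3; KASUMI-1 is in red. RUNX1T1, TRH, KIT, CD34, RUNX1 and MPO were higher in the 3 KASUMI-1 libraries than in the other 30, and S100A10, PBX3 and OGG1 were lower.

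With a line as 1 value, 36 of 21831 genes tested were higher in KASUMI-1 (0.165%) and 11 were lower (0.0504%) where a call required more than a 2-fold change and an FDR under 0.05. At an unadjusted p under 0.05 these numbers were 707 and 819. For all 47 called genes the 3 KASUMI-1 libraries lay outside the range of the other 30 libraries. Non-overlap by itself was far more frequent, with 1279 genes above (5.86%) and 762 genes below (3.49%). Among the 36 higher genes, 28 were protein-coding, 7 were long noncoding RNAs and 1 was a processed pseudogene, and all 11 lower genes were protein-coding. The line test takes the spread of the 10 other lines and assumes that the lone KASUMI-1 value varied like theirs. The counts depended on which other lines were present: without F-36P, 68 genes were higher and 24 lower, without MV-4-11 there were 11 and 5, and without any single one of the remaining 8 lines between 13 and 23 were higher. Of the 47 called genes 36, and of the 26 with the widest gaps 17, lost the call under at least 1 alternative, whereas RUNX1T1, TRH, C1QTNF4, THEM4, RMND5B, HNRNPLL, MAP3K13 and ZNF597 kept it under all 20 and GUCY1A1 under all 19 that could be run for it. The exact permutation test of 1 line against 10 cannot give a p below 0.0909.

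TRH, the gene of thyrotropin-releasing hormone (ENSG00000170893.3, chr3:129974688-129977935, plus strand), stood next to RUNX1T1. It had 171, 186 and 199 CPM in KASUMI-1, and 3 reads in all of the other 30 libraries, each in a separate library. No other library overlapped with KASUMI-1, and the edgeR line test gave an adjusted p of 0.000512. The ratio of 34631 per read on genes had a 95% exact binomial interval of 11847 to 167955.

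Other genes with a wide gap to the next line encode proteins of several kinds. ADAM12, a membrane-anchored metalloprotease, was at 144 ± 8.40 CPM in KASUMI-1 and at most at 0.303 CPM in another line. C1QTNF4, a secreted C1q-like protein, was at 76.3 ± 10.8 CPM against at most 0.232 CPM. CD96, an immunoglobulin-like receptor of T and NK cells that has been described on leukemic stem cells, was at 57.2 ± 5.60 CPM against at most 0.156 CPM. The edgeR line test called all 3, with adjusted p-values of 0.035, 0.0163 and 0.0235. ADAM12 lost its call in 9 of 20 alternatives and CD96 in 1 of 19, and C1QTNF4 kept it in all 20.

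Signalling genes were called as well. GUCY1A1, a subunit of the nitric oxide receptor guanylate cyclase, was at 17.6 ± 3.02 CPM in KASUMI-1 and at most at 0.0653 CPM elsewhere. ERAS, a constitutively active RAS-like protein of embryonic stem cells, was at 14.4 ± 2.77 CPM against at most 0.123 CPM. WNK3, a kinase that acts on chloride cotransporters, was at 7.83 ± 2.22 CPM against at most 0.126 CPM. NPW, the precursor of the peptide neuropeptide W, was at 26.4 ± 6.26 CPM and 21.6-fold above the next line, MONO-MAC-6. In each of these genes the lowest KASUMI-1 library was above the highest of the other 30, which was a condition for entry among the genes with the widest gaps. ERAS, WNK3 and NPW lost their calls in 5, 9 and 10 of 19 alternatives.

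The remaining genes of this group were LINC01257 (25.2 ± 2.19 CPM), ARL9 (15.3 ± 1.25 CPM), LYPD8 (7.06 ± 0.69 CPM), GSTO2 (13.0 ± 0.87 CPM), LOXL3 (76.4 ± 4.84 CPM) and DANCR (585 ± 38.8 CPM). LOXL3, a lysyl oxidase-like enzyme, and DANCR, a long noncoding RNA, were read in every line, and KASUMI-1 was 8.31-fold and 3.67-fold above the next line. Called genes with moderate differences in widely read genes were, chosen after their values were seen, TGFBR2, the type II receptor of TGF-beta, with 179 ± 7.42 CPM, 2.97-fold above the next line, and DNAJA2, a chaperone cofactor, with 369 ± 9.24 CPM, 3.47-fold above. These calls were lost in 4 and 6 of 20 alternatives, each of which left out another line. NT5C3AP2 lies inside CD96, ENSG00000260244 overlaps GUCY1A1 and ADARB2-AS1 overlaps ADARB2. The calls of each pair may thus not be separate, and whether the pairs share reads was not tested. SNORA26 lies inside DANCR, and HTRA2 and DOK1 overlap LOXL3.

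Genes read in KASUMI-1 alone did not always pass the line test. With a floor of 1 CPM chosen after the values were seen, 6 named genes were read in KASUMI-1 and held 0 reads in all other 30 libraries, and none of the 6 was called. CD200, an immunoglobulin-like surface protein that dampens myeloid cells, had 51.9 to 54.3 CPM in the KASUMI-1 libraries, at least 9922-fold more per read on genes than 3 reads over the other 30 libraries, with an adjusted p of 0.254 in the edgeR line test. The other members were MIR4458HG (12.8 ± 2.23 CPM), RPL7AP28, GPAT2P1, ADAMTS19, a secreted metalloprotease, and NKX2-5, a heart transcription factor, at 1.98 ± 0.30 CPM.

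The 11 genes called lower had been read in every other line. PYCR1, the last enzyme of proline synthesis (ENSG00000183010.16, chr17:81932384-81942412, minus strand), held 0 reads in the 3 KASUMI-1 libraries and 14.3 to 229 CPM in the other 30. Its level was at least 312-fold lower than in OCI-AML2, the lowest other line, when 3 reads over the 3 KASUMI-1 libraries are taken as the limit (edgeR line test, adjusted p = 0.0302). PYCR1 lost its call in 8 of 20 alternatives. THEM4, a mitochondrial thioesterase that also binds AKT, held 0 reads and was at least 258-fold lower (adjusted p = 0.00522, edgeR line test). MAP3K13, a kinase of the JNK pathway, and ZNF597, an imprinted zinc-finger gene, held 0 reads as well and were at least 160-fold and 112-fold lower. Counted after the values were seen, 7 genes had 0 reads in KASUMI-1 and at least 5 CPM in each other line, these 4 and the uncalled GRB10, SLFN11 and GALM.

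S100A10, the partner of annexin A2 at the plasma membrane (ENSG00000197747.8, chr1:151982915-151993859, minus strand), had 0, 0 and 2 reads in KASUMI-1. The other 30 libraries had 15.8 to 83.8 CPM with a median of 45.1. HL-60, the lowest other line, stood 559-fold higher per read on genes, with a 95% exact binomial interval of 154 to 4618, and the edgeR line test gave an adjusted p of 0.0235. ATP6V0A1, a subunit of the vacuolar proton pump, had 2 reads in KASUMI-1 and was 415-fold lower than in OCI-AML3, with an interval of 114 to 3430. Its call was lost in 8 of 20 alternatives, and that of S100A10 in 1 of 20. RMND5B, a ubiquitin ligase subunit, and HNRNPLL, a splicing regulator, were read at 0.531 ± 0.379 and 1.07 ± 0.07 CPM, 47.4-fold and 35.7-fold under the lowest other line.

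PRDX2, a peroxide-reducing enzyme, was at 19.2 ± 3.53 CPM in KASUMI-1, 5.67-fold lower than in THP-1, the lowest other line. SP100, a nuclear body protein induced by interferon, was at 8.94 ± 1.52 CPM, 3.53-fold lower than in NB-4, and had the weakest call of the group (adjusted p = 0.0497, edgeR line test). SP100 lost its call in 12 of 20 alternatives and PRDX2 in 6 of 20. OGG1 is described with the fusion's known targets below. NHP2 overlaps RMND5B, CAMK1 and TADA3 overlap OGG1 and HOOK2 overlaps PRDX2 in the annotation, and the part of this overlap in their counts was not tested.

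Genes described as high with the fusion were higher in part. Of 21 genes, 1 was called by the edgeR line test, TRH, and 6 lay above all other libraries (5.86% of all genes did), whereas none lay below. The median log2 difference was 1.23 over these genes and -0.09 over all genes tested, and 12 of the 21 differences were positive. JUP, the junction protein plakoglobin, had 304, 321 and 354 CPM in KASUMI-1 against a median of 6.38 and a maximum of 253 CPM in the other libraries. UBASH3B, a phosphatase that acts on CBL-bound kinases, had 283, 264 and 257 CPM against a median of 27.0 and a maximum of 241 CPM. NOMO-1 came next in both genes, and KASUMI-1 was 1.36-fold and 1.16-fold above it.

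POU4F1, a neural transcription factor, had 35.9, 32.9 and 35.5 CPM in KASUMI-1 against a maximum of 19.9 CPM, reached in HL-60. PAX5, the B-cell master regulator, had 16.3, 15.6 and 16.7 CPM against a maximum of 5.83 CPM, reached in THP-1. SIPA1L2 was at 32.5 ± 1.30 CPM and 1.46-fold above MV-4-11. These 5 genes did not overlap with the other libraries in KASUMI-1 but did not pass the edgeR line test (adjusted p between 0.713 for UBASH3B and 0.778 for JUP, POU4F1 and SIPA1L2).

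Other genes of the same list did not set KASUMI-1 apart. ROBO1 was at 66.4 ± 7.24 CPM, next to 67.0 CPM in NOMO-1, and HSPG2, the matrix proteoglycan perlecan, was at 268 ± 11.1 CPM, next to 282 CPM in F-36P. CCND2, which encodes cyclin D2, was at 176 ± 13.4 CPM, and HL-60 had 316 CPM. NCAM1, CACNA2D2, CAV1 and IL5RA each held at most 2 reads over the 3 KASUMI-1 libraries. CCNA1, which encodes cyclin A1, was at 1.40 ± 0.42 CPM in KASUMI-1, and the median of the other lines was 29.0 CPM.

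Genes described as repressed by the fusion were lower in part. Of 9 genes, 1 was called lower by the edgeR line test, OGG1, 4 lay below all other libraries (3.49% of all genes did) and none lay above. OGG1, the glycosylase that removes oxidized guanine from DNA (ENSG00000114026.21, chr3:9749944-9788219, plus strand), had 2.08, 2.20 and 3.04 CPM in KASUMI-1. The other libraries had 19.3 to 43.4 CPM, so that KASUMI-1 was 8.29-fold lower than MOLM-13, the lowest other line (adjusted p = 0.0293, edgeR line test). OGG1 lost this call in 10 of 20 alternatives. RASSF2, a RAS-binding tumor suppressor, had 10.6, 10.5 and 10.7 CPM against 50.7 to 537 CPM, 5.20-fold under THP-1 (adjusted p = 0.311, edgeR line test).

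LAT2, an adaptor of immune receptors, had 1.22, 1.36 and 1.55 CPM in KASUMI-1, and the other libraries had a median of 254 CPM. F-36P was low as well with 3.41 CPM, and without F-36P the call changed from an adjusted p of 0.403 to one of 0.0288 in the edgeR line test. SLA, an adaptor that turns off antigen receptors, was at 13.2 ± 1.76 CPM, 1.62-fold under THP-1. CEBPA, the transcription factor of granulocytic commitment, was at 18.5 ± 3.19 CPM and ranked 10 of 11, above 0.551 CPM in F-36P, and the median of the other lines was 296 CPM. CEBPE, which acts later in that lineage, was at 46.6 ± 5.94 CPM in KASUMI-1 and ranked 4. RUNX3, IGFBP7 and MIR223HG, the host transcript of miR-223, ranked 7, 7 and 4.

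The genes of the fusion's known partners lay within the range of the other lines for 13 of 17. Of 17 genes for complex partners, corepressors and deacetylases, none was called by the edgeR line test, 3 lay above all other libraries (5.86% of all genes did) and 1 lay below (3.49% of all genes). ERG, an ETS factor of stem cells, had 123, 115 and 124 CPM in KASUMI-1 against at most 15.9 CPM, which is 7.93-fold above OCI-AML3 (adjusted p = 0.647, edgeR line test). FLI1, its close relative, was at 196 ± 2.07 CPM and 1.15-fold above THP-1. TBL1XR1, a subunit of the corepressor complex of NCOR1, was at 345 ± 31.7 CPM and 1.63-fold above OCI-AML2, whereas NCOR1 itself was at 65.2 to 86.8 CPM in the 3 libraries, below the 118 CPM of THP-1. HDAC1, HDAC2, HDAC3, SIN3A, PRMT1 and EP300 lay within the range of the other lines.

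**Figure D2:**
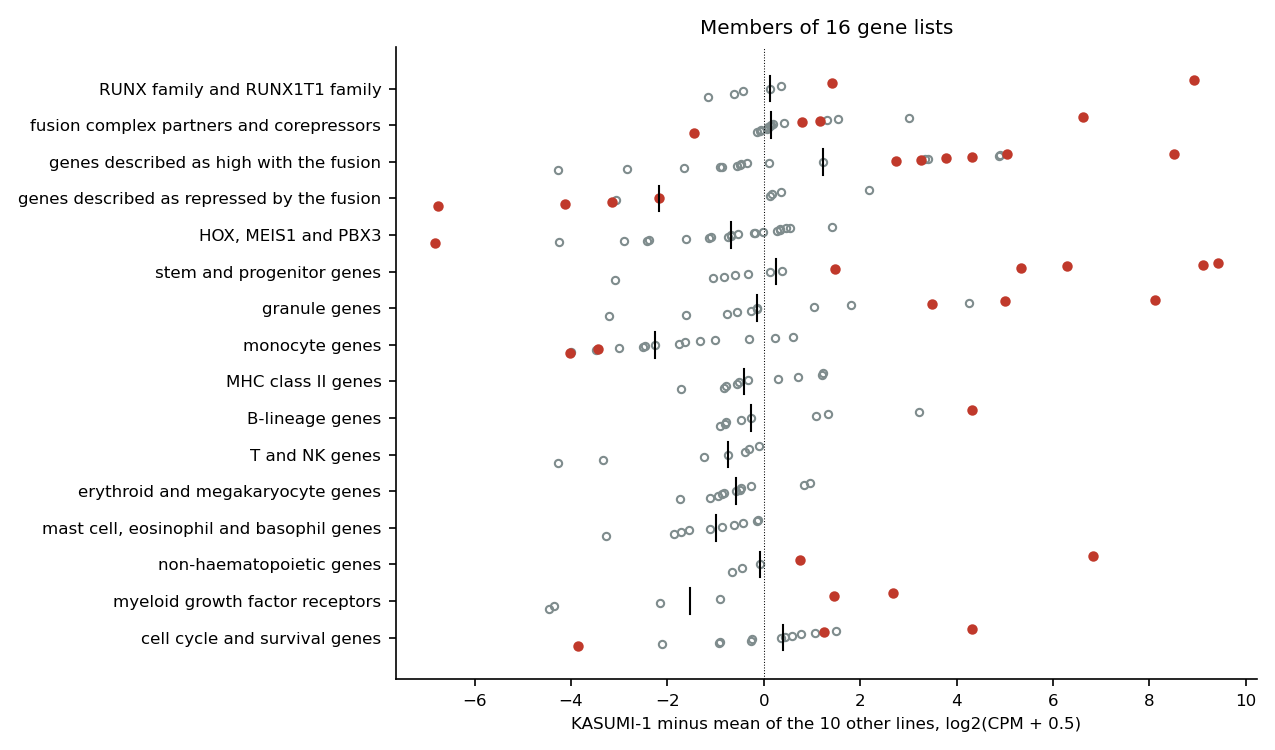
Difference between KASUMI-1 and the mean of the 10 other lines, as log2(CPM + 0.5), for the tested members of 16 gene lists. Each point is 1 gene, filled red where all 3 KASUMI-1 libraries lie outside the other 30, and the black bar is the median of the list; the median was highest for the genes described as high with the fusion and lowest for the monocyte genes.

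Among stem and progenitor genes, KIT and CD34 stood far above the other lines in KASUMI-1. Of 12 tested genes, 5 lay above all other libraries (5.86% of all genes did) and none lay below (3.49%), and none was called by the edgeR line test. KIT, the receptor of stem cell factor (ENSG00000157404.15, chr4:54657267-54740783, plus strand), had 1049, 976 and 869 CPM in KASUMI-1. The median of the other libraries was 0.636 CPM and none exceeded 34.4 CPM, so that KASUMI-1 was 30.8-fold above NOMO-1, the next line (adjusted p = 0.258, edgeR line test). CD34, the antigen that marks progenitors (ENSG00000174059.16, chr1:207880972-207911402, minus strand), had 589, 579 and 607 CPM. Its median in the other libraries was 0, and only F-36P came near, with a line mean of 31.1 CPM. The edgeR line test gave an adjusted p of 0.51 with F-36P and of 0.00757 without it.

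BAALC, a gene of early progenitors and of AML with poor outcome, had 45.7, 44.5 and 51.3 CPM in KASUMI-1 and at most 0.689 CPM in another library. EGFL7, the host gene of miR-126, was at 240 ± 31.5 CPM and 2.03-fold above F-36P. HLF, a stem cell transcription factor, was read at 1.30 ± 0.23 CPM, 1.57-fold above HL-60. The median log2 difference of the list was 0.26, and 5 of 12 differences were negative. FLT3 was at 7.81 ± 0.81 CPM and ranked 9 of 11, and MECOM held 0 reads in KASUMI-1. Of the 12 tested genes 2 had at most 3 reads in KASUMI-1, beside 4707 of all 21831 genes tested.

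Granule genes of the neutrophil lineage summed to 27479 to 31459 CPM in the KASUMI-1 libraries, more than in any other line (NB-4 had 16375 CPM), and most of these reads were of MPO. MPO, the myeloperoxidase of azurophil granules, had 25289, 27180 and 28990 CPM in KASUMI-1. The other libraries reached 17082 CPM, and KASUMI-1 was 1.73-fold above NB-4 (adjusted p = 0.778, edgeR line test). ELANE, the elastase of the same granules, was at 210 ± 27.1 CPM and 1.59-fold above THP-1. SERPINB1, the inhibitor of elastase, had 814, 821 and 788 CPM against line means of 16.6 to 263 CPM, 3.08-fold above MONO-MAC-6. Of 13 tested granule genes these 3 lay above all other libraries (5.86% of all genes did) and none was called. PRTN3 ranked 2 behind MOLM-13, CTSG ranked 7, and the genes of late granules LTF, CAMP and LCN2 held 0 reads in KASUMI-1. Of the 13 tested granule genes 3 had at most 3 reads in KASUMI-1, beside 4707 of all 21831 genes tested.

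Monocyte genes were low. Their sum was 98.4 to 109 CPM in the KASUMI-1 libraries, 9 of the 10 other lines had more, and the median of those lines was 1668 CPM. Of 15 tested genes 13 had a negative difference, with a median of -2.26 on the log2 scale, 2 lay below all other libraries (3.49% of all genes did) and none was called by the edgeR line test. Of all 21831 genes tested, 12607 had a negative difference. ITGAM, the integrin CD11b, had 0.456, 0.419 and 0.553 CPM, 6.40-fold under HL-60. KLF4, a monocyte transcription factor, held 0 reads in KASUMI-1, and the lowest other library had 0.106 CPM. IRF8, which directs monocyte and dendritic cell fate, was at 12.7 ± 1.75 CPM, and the median of the other libraries was 366 CPM. CSF1R and FCGR1A, by contrast, ranked 5 and 6 of 11.

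HOX genes, which pattern the embryo and are high in many AML subtypes, summed with MEIS1 and PBX3 to 69.6 to 80.0 CPM in KASUMI-1. HL-60 had 54.9 CPM, and the median of the other lines was 358 CPM. PBX3, a HOX cofactor, had 0, 0 and 1 read in KASUMI-1, and the other libraries had 3.44 to 279 CPM. NB-4, the lowest other line, stood 288-fold higher per read on genes, with a 95% exact binomial interval of 51.4 to 11432, and the edgeR line test gave an adjusted p of 0.256. MEIS1, the other cofactor, was at 0.0722 ± 0.0851 CPM, with 46.7 CPM as the median of the other lines. Most reads of the list in KASUMI-1 came from HOXA10 (37.5 ± 2.52 CPM), HOXA11, HOXA5 and HOXA13, and 7 of 8 HOXB genes held 0 reads in KASUMI-1. On line means (limma-trend), the log2 differences of the 8 HOXB genes ran from -3.55 for HOXB3 to -0.39 for HOXB5. Of the 21 genes of the list, 9 had at most 3 reads in KASUMI-1, as did 4707 of all 21831 genes tested.

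Markers of other lineages were mixed. T and NK genes summed to 1.31 to 2.03 CPM, below each of the 10 other lines. Genes of mast cells, eosinophils and basophils summed to 1.36 to 1.57 CPM, and OCI-AML3, the lowest other line, had a mean of 1.56 CPM. Erythroid and megakaryocyte genes summed to 15.9 to 19.2 CPM, and GATA1 had 1 read in all. B-lineage genes summed to 37.9 to 43.0 CPM, more than in all lines but HL-60 (median of the other lines 9.89 CPM), most of them reads of PAX5 and CD79B, whereas EBF1, MS4A1, BLNK and VPREB1 held 0 reads. Of 9 tested B-lineage genes 4 had at most 3 reads in KASUMI-1, beside 4707 of all 21831 genes tested. MHC class II genes lay within the range of the other lines, with none of 10 above or below. Non-haematopoietic genes summed to 68.5 to 89.7 CPM in KASUMI-1 and at most to 27.0 CPM in another line, F-36P. Nearly all of these reads were of 1 gene: EPCAM, an epithelial adhesion protein, had 89.3, 88.1 and 68.1 CPM in KASUMI-1 against at most 11.4 CPM, and the endothelial cadherin CDH5 was called by the edgeR line test at 0.351 ± 0.105 CPM (adjusted p = 0.035), a call that was lost in 10 of 16 alternatives, with an adjusted p of up to 0.602. KRT19 and COL3A1 held 0 reads in KASUMI-1, and CDH1 and COL1A1 held 3 and 1.

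Growth factor receptors of myeloid cells split in both directions. CSF3R, the receptor of G-CSF, had 765, 794 and 790 CPM in KASUMI-1 and at most 294 CPM in another library, 2.70-fold above NOMO-1 (adjusted p = 0.385, edgeR line test). TNFRSF1A was at 256 ± 16.1 CPM and 1.95-fold above NB-4. CXCR4, the homing receptor, was at 2.96 ± 0.33 CPM and IL6R at 6.01 ± 0.08 CPM, with F-36P the only line below KASUMI-1 in either gene. CSF2RA and IL3RA, which lie in the pseudoautosomal region, are listed at 0 in every library of every line, and whether they were expressed cannot be read from these counts.

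Cell cycle genes gave 2 genes above and 1 below all other libraries out of 14, beside shares of 5.86% and 3.49% over all genes, and no call by the edgeR line test. CCND3, which encodes cyclin D3, had 15.1, 17.5 and 16.7 CPM in KASUMI-1 against 86.5 to 620 CPM, 5.39-fold under HL-60 (adjusted p = 0.203, edgeR line test). CDK6, which pairs with D cyclins, was at 710 ± 86.8 CPM, the first rank, but its libraries overlapped with NOMO-1. CDKN1B, the inhibitor p27, was at 137 ± 3.38 CPM and 1.29-fold above MV-4-11, and MYCN was at 12.4 ± 1.42 CPM, 3.05-fold above NOMO-1. MYC ranked 2 with 935 ± 45.6 CPM.

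The genes around KIT on chromosome 4 were high as a group. This window was chosen after the values were seen. Within 2 Mb of KIT, 21 genes were read in every line, all 21 log2 differences of the library fit were positive (0.25 to 7.84, median 1.22), and 14 lay above all other libraries, against 6.46% of the 13538 genes with reads in every line. DANCR, ARL9 and SRP72, a subunit of the signal recognition particle, were among them and were called by the edgeR line test, and SRP72 lost the call in 10 of 20 alternatives. DCUN1D4, another called gene, lies at chr4:51843000-51916837, outside the window. Chromosome 4 held 6 of the 36 genes called higher, and 450 of the 13538 genes with reads in every line. Chromosomes 3, 10 and 16 held 4 of the genes called higher each. SRD5A3, an enzyme of dolichol synthesis, was at 189 CPM with a log2 difference of 2.62 ± 0.05 (SE), and PAICS, an enzyme of purine synthesis, was at 1093 CPM with 0.98 ± 0.05.

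The loci joined by the translocation were described in the same way. Among 31 genes within 2 Mb of RUNX1 the median log2 difference was 0.11, with 1 above and 2 below all other libraries. Among 15 genes within 2 Mb of RUNX1T1 the median was -0.54, with 1 above and 3 below. The shares over genes with reads in every line were 6.46% and 5.33%. Of the 15 genes, 7 had a log2 difference under -1, and the share of all genes under -1 was not counted. These 7 ranged from SLC26A7 at 0.0338 CPM in KASUMI-1 to NBN at 60.0 CPM. The median over the 451 genes of chromosome 8 was -0.24.

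Whole chromosomes differed in the share of genes that set KASUMI-1 apart. Genes above all other libraries made up 78 of 520 genes on chromosome 10 and 11.3% of 841 genes on chromosome 17, against 6.46% over all chromosomes. Genes below made up 15.7% of 683 genes on chromosome 16, 13.9% of 452 on chromosome 15 and 10.5% of 885 on chromosome 2, against 5.33%. The median log2 difference was 0.50 on chromosome 10 and -0.36 on chromosome 16. These shares are descriptions, since neighbouring genes are not independent. THEM4 and S100A10, both called lower, lie near each other on chromosome 1, at chr1:151870866-151909637 and chr1:151982915-151993859, and none of the 7 neighbours of S100A10 that were read in every line was outside the range of the other libraries. Around other genes called lower some were: within 0.5 Mb, 4 of 7 neighbours of SP100 (median log2 difference -1.81) and 8 of 31 neighbours of ZNF597 lay below all other libraries.

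The short sequence bound by RUNX1, read as TGTGGT or TGCGGT on either strand, was searched in the promoters of the called genes. In the RefSeq promoters (250 bases before to 50 after the start, GRCh38.p14), 24 of the 36 higher genes and 10 of the 11 lower genes could be matched by symbol. Of these, 4 of 24 (16.7%) and 1 of 10 (10.0%) held a match, as did 18.7% of the 13479 promoters of all genes tested and 19.4% of all 27305 promoters. Over genes above or below all other libraries the shares were 18.1% and 19.5%. None of 16 promoters on the list of genes described as high with the fusion held a match, and 2 of 5 on the list of repressed genes did. The matches are letters in this window and say nothing on binding.

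The promoter of CD96 holds a match on each strand and is shown for that reason beside those of TRH and OGG1, the called genes of the lists above. Only the longest stretch before the RefSeq start that is free of annotated exons is shown, 5′ to 3′ on the plus strand, with matches in capitals. OGG1's match lies outside the stretch shown, and TRH has none. The stretches are chr3:111542004-111542149, chr3:129974470-129974687 and chr3:9749702-9749943 on GRCh38.p14.
CD96: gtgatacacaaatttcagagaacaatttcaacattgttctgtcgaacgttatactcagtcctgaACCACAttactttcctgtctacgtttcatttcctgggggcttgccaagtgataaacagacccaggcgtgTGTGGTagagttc
TRH: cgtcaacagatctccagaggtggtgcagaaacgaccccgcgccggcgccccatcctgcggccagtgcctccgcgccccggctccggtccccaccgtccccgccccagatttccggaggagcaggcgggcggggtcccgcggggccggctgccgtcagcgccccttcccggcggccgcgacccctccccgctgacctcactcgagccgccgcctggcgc
OGG1: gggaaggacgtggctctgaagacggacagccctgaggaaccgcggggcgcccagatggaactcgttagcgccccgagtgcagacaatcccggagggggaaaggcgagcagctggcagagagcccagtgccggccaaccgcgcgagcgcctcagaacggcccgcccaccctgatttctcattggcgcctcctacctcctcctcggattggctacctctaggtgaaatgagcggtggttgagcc

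Tested against the replicate spread alone, with 1 coefficient per line, KASUMI-1 differed from the mean of the 10 other lines in many genes. The library-level edgeR fit called 3225 of 18130 genes higher (17.8%) and 1972 lower (10.9%). Of the 47 genes of the line test, which uses the same reads, it called 44 the same way, and this overlap is not separate support. The p-values of the library fit measure the spread between cultures of the same line and not that between lines. In 4464 of these genes at least 1 line held 0 reads, where the mean of log levels over lines is not defined, and the fit gives no usable fold change there.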

How the data were processed

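RNA of 11 AML lines was sequenced by the authors from poly(A)-selected, stranded libraries; per the labels, FastQC 0.11.5, STAR 2.5.3a, edgeR 3.20.1 and GRCh38.p7 were used, and each deposited file holds raw read counts per gene with gencode 25. The deposited count column used here assigns reads by strand (376 of 754 genes inside an exon of the opposite strand had reads). Only the 33 untreated libraries entered, 3 per line. Of 58037 identifiers, 45 pseudoautosomal copies were left out, and 56948 of the rest were named from gencode 44 by identifier. Replicates differed by more than sampling noise. The series text calls them biological replicates, and p-values of the library fit measure only the spread among them.

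The members and gene lists were chosen with earlier results of these data known. Counts were summed per line and tested with edgeR 4.0.16 (quasi-likelihood, TMM, R 4.3.3, minimum count 10, minimum total 15), KASUMI-1 against 10 lines, with calls at more than a 2-fold change and an FDR under 0.05. A second edgeR fit compared the 3 KASUMI-1 libraries with the mean of the 10 lines over all 33 libraries. Levels are TMM-scaled CPM, and list differences use log2(CPM + 0.5). The text names list genes and the called genes (called the same way in both fits) with the widest gap to the nearest other line, 15 higher with at least 5 CPM in KASUMI-1 and 11 lower with at least 5 CPM in every other line; others are stated as chosen after their values were seen. Alternatives were other scalings, filters, DESeq2 1.42.0, limma 3.58.1, lines or replicates left out and a replicate block. The fits were tested on simulated data with known changes. At 4-fold, the line test recovered 7 of 50 higher and 1 of 50 lower genes, and at 32-fold 37 and 23 of 50. It made 7 false calls beside these 7, 1, 37 and 23 true ones, so the false share of its calls was above the FDR limit of 0.05. The simulation of the line test ran 13629 genes, fewer than the 21831 genes of the main test. The error for genes with almost no reads in the other lines, such as RUNX1T1 and TRH, was not tested. The library fit recovered 100 of 100 each way at 4-fold, with 0 false calls. Its simulation held 9985 genes read in every line, with a replicate spread set in advance. Unchanged genes had KASUMI-1 placed at the mean of the other lines, so false calls could hardly arise. It does not show the error of this fit on the real data, where some lines held 0 reads. The line test thus missed most 4-fold changes, so a gene that was not called may still differ. Intervals and limits cover counting error only. Some members of the gene lists are not reported here by name.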

Additional observations from a re-analysis of the deposited data

How the results depend on the processing

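With a line as 1 value, 36 genes higher and 11 lower became 37 and 10 with RLE size factors, 34 and 12 with library size alone, and 35 and 9 with no filter. A mean of at least 5 CPM left 10 higher, DESeq2 gave 197 and 691, and limma-trend on line means gave 144 and 79; the cause was not tested. Of the 47 genes called, 32 were among the 888 of DESeq2 and 47 among the 223 of limma-trend. Leaving out 1 line gave 11 to 68 higher and 5 to 24 lower, and leaving out 1 replicate number gave 29 to 36 and 10 to 12. DESeq2 also called 13 list genes that the main test did not, KIT and CD34 among them. None of the 47 called genes reversed its direction. Of 178 uncalled list genes, 34 changed sign in at least 1 alternative, mostly with limma-trend, among them RUNX3, CEBPE, IGFBP7, HOXA10, CTSG, CSF1R and FCGR1A.

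The library fit, with 3225 higher and 1972 lower, gave 1455 and 1089 at a mean of at least 5 CPM and 6631 and 5039 with no fold change minimum. Chosen after seeing the data, genes with reads in every line gave 1790 higher and 1837 lower. These were 13666 of the 18130 genes, and the cause of the change was not tested. Limma-trend on the libraries, also chosen after seeing the data, gave 3351 lower. Leaving out 1 line gave 3137 to 3289 and 1880 to 2182. With a replicate block the counts were 3216 and 1958. Same-numbered libraries of KASUMI-1 and another line correlated at -0.491 to 0.274, with 10 of 30 pairs over 0.1. In 13 of the 30 pairs the same number gave the highest correlation. Whether the numbers pair the libraries was not settled by these values. Leaving out 1 line gave 1345 to 1628 genes above and 756 to 1171 below all other libraries, the latter without F-36P.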
